A study of Mus musculus with 2 samples.

Results

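The cathepsin genes Ctsb, Ctsc, Ctsd, Ctsh, Ctsk, Ctsl, Ctss and Ctsz were followed across the cells of mouse skin. They were chosen by name as 8 of the 32285 genes counted, and all 8 had UMIs (unique molecular identifiers, which count captured RNA molecules). The cells came from 8 week old C57BL/6 skin, digested for an hour with Liberase and DNAseII and read as droplet single-cell RNA. They were a mixture of neutrophil-depleted skin, treated at steady state on 2 consecutive days with an anti-Ly6G antibody of clone 1A8, and control skin. Both were marked with hashtag antibodies and pooled. The counts of the 1 pooled RNA library name no condition, so neutrophil-depleted and control cells were not compared, and every value describes the pool.

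Cathepsins are proteases of endosomes and lysosomes that are made as inactive precursors, carried there by mannose 6-phosphate receptors and activated as the compartment is acidified. Most are cysteine proteases held in check by cystatins, while cathepsin D is an aspartic protease. In phagocytes they break down ingested protein and trim the invariant chain from class II molecules before a peptide can be loaded, and in connective tissue they take part in the turnover of collagen and elastin.

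After filtering and removal of called doublets, 7822 cells remained, with a median of 9532 UMIs and a range of 507 to 58199. They fell into 27 clusters, found without the cathepsins or the related genes described below. Clusters were named from markers as macrophage-like (1433 cells in 4 clusters), monocyte-like (261), dendritic-like (260), fibroblast-like (3947 in 8 clusters), basal keratinocyte-like (918 in 4 clusters) and suprabasal keratinocyte-like (407), with smaller classes and 59 unnamed cells. Of the defining markers, 8 of 9 of the dendritic list and all 6 of the monocyte and fibroblast lists stood out in the clusters so named. In the macrophage clusters 7 or 8 of 8 markers did. No hair follicle class was named, since basal markers led the 2 clusters that also met the hair follicle list. Levels are CPM, the UMIs of a gene per 1000000 UMIs of a class or cluster, with 95% exact Poisson intervals, which cover counting error only, and there was no replicate. CPM of different genes are not set against each other, since they were not corrected for length. A gene is called above or below where the ratio of CPM is at least 2-fold, beside the share of all genes with at least 50 UMIs that pass the same line. RNA from broken cells also enters droplets. From markers of unrelated lineages it was put at 2.02% of UMIs in macrophage-like, 1.52% in monocyte-like and 1.48% in dendritic-like cells. It was put at 3.53% in fibroblast-like, 3.55% in basal and 8.05% in suprabasal cells. Each share is a mean over marker lists and can be too high for a single gene.

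**Figure D1:**
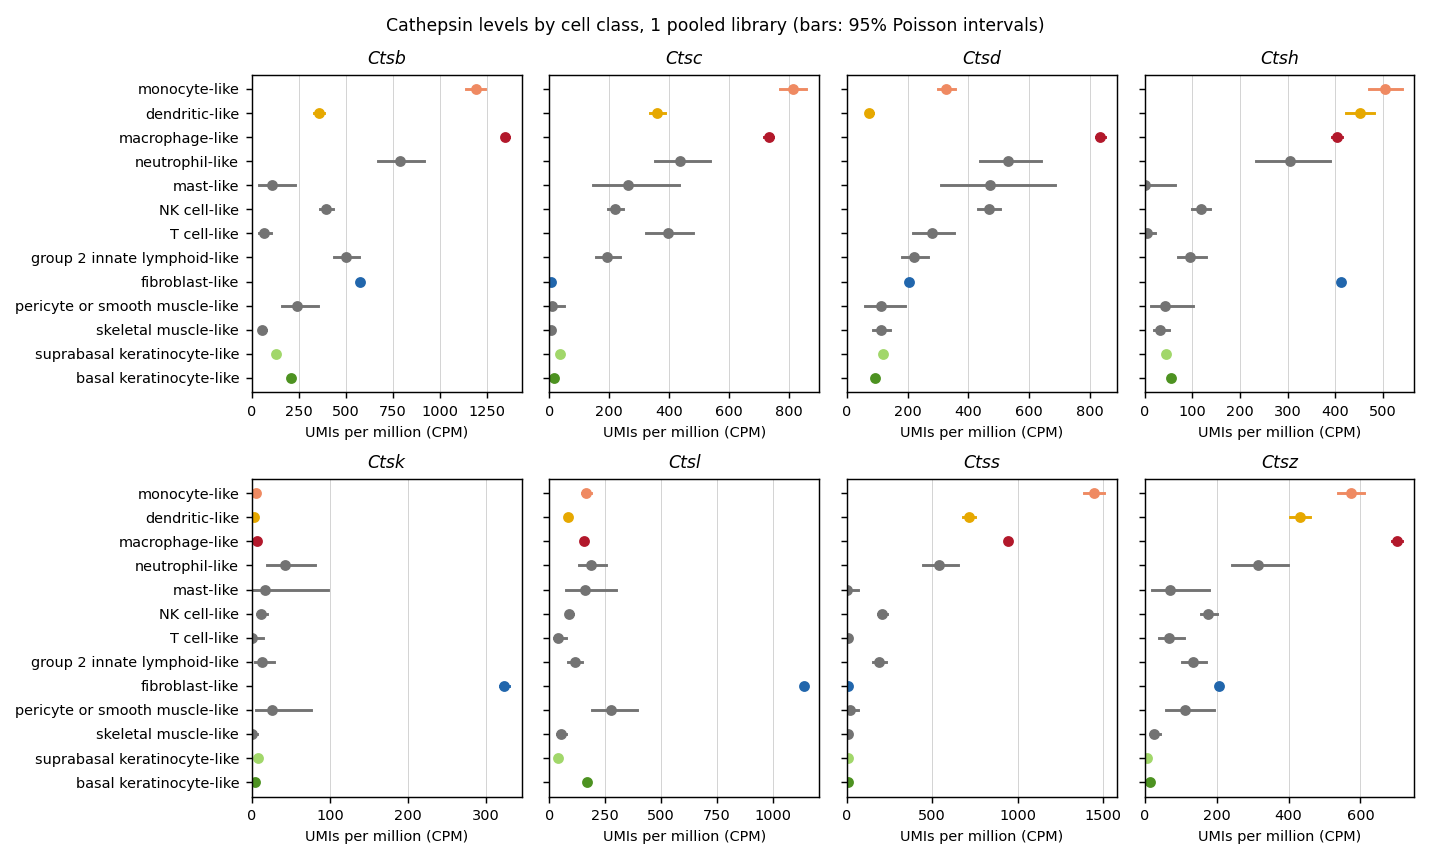
Level of each cathepsin (CPM, linear axes that differ between panels) in the 13 named classes, with points for the pooled class and bars for 95% Poisson intervals. Ctsk and Ctsl stand out in fibroblast-like cells at 324 and 1140.3 CPM, and Ctsc and Ctss are near 0 there at 3.86 and 5.88 CPM. The keratinocyte classes are low for most genes, but basal Ctsl, at 169 CPM, is near the 155 CPM of macrophage-like cells.

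Macrophage-like and fibroblast-like cells differed in which cathepsins stood high. In macrophage-like cells Ctsb, Ctsc, Ctsd, Ctss and Ctsz, 5 of the 8, were called above all other cells, against 13.8% of 15285 genes. Ctsk and Ctsl, 2 of the 8, were called below, against 34.1%. In fibroblast-like cells it was Ctsk and Ctsl, 2 of the 8, that were called above (20.2% of genes), and Ctsc, Ctsd and Ctss, 3 of the 8, below (24%). The median log2 ratio over the 8 was 1.73 in macrophage-like cells, where that of all genes was -0.34, and -0.53 in fibroblast-like cells, where that of all genes was -0.14. Set directly against each other, macrophage-like cells were above fibroblast-like cells for 5 of the 8 (19.5% of genes) and below for 2 of the 8 (30.2%). Ctsh lay between, at 403 CPM in macrophage-like and 412 CPM in fibroblast-like cells, a ratio of 0.978 (0.949 to 1.01).

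Ctss encodes cathepsin S, the protease that trims the invariant chain in antigen-presenting cells and stays active at neutral pH. Its level was 1449 CPM (1392 to 1507) in monocyte-like cells, 942 (926 to 958) in macrophage-like cells, 715 (679 to 752) in dendritic-like cells and 542 (447 to 651) in the 40 neutrophil-like cells. Each of these 4 classes differed from the next beyond counting error. NK cell-like cells, at 207 CPM, and group 2 innate lymphoid-like cells, at 187 CPM, came after them and did not differ from each other. Those clusters also carried macrophage markers, at 1291 and 1557 CPM. The free RNA estimate was 42.7% of UMIs in NK cell-like and 50.9% in group 2 innate lymphoid-like cells, the highest given here. It is a mean over marker lists and was raised by the macrophage list, at 1072 CPM in all cells together. At these shares Ctsk would be at 77.8 and 92.8 CPM, but it was at 11.9 and 12.8 CPM. The estimate is thus too high for Ctsk and is no measure of free RNA alone in these classes. Taken at face value, it would give 46.7% of the Ctss level in NK cell-like and 61.7% in group 2 innate lymphoid-like cells. The place of these classes in the orders of Ctss and the other members is uncertain. That of the neutrophil-like class is uncertain too, since its cluster also carried macrophage markers at 2957 CPM and fibroblast markers at 2030 CPM. The part of such RNA in its cathepsin levels was not tested. In fibroblast-like cells Ctss was at 5.88 CPM (5.18 to 6.65) and in basal keratinocyte-like cells at 3.34 CPM (2.27 to 4.74). Both lay under the 8.00 and 8.04 CPM of the free RNA estimate, which is thus too high for Ctss there. It does not tell how much of these low levels is background. With every cell thinned to 1000 UMIs, which kept 1392 macrophage-like and 3924 fibroblast-like cells, a Ctss UMI was found in 54.7% (52.0 to 57.3) of macrophage-like and 0.612% (0.392 to 0.909) of fibroblast-like cells. Unthinned, the shares were 88.1% of macrophage-like cells at a median of 8646 UMIs and 4.33% of fibroblast-like cells at a median of 10699 UMIs.

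Ctsk encodes cathepsin K, a collagen- and elastin-cleaving protease best known from osteoclasts. It was at 324 CPM (318 to 329) in fibroblast-like cells and at 6.29 CPM in all other cells together, a ratio of 51.5 (45.1 to 59.1). No other class came within 7.57-fold of the fibroblasts. Neutrophil-like cells followed at 42.8 CPM from 9 UMIs, in a cluster where free RNA was put at 16.7% of UMIs. Macrophage-like cells had 6.66 CPM (5.37 to 8.17), monocyte-like 4.71, basal keratinocyte-like 4.52 and dendritic-like 2.88 CPM. From the neutrophils down, no neighbouring classes in the order could be told apart, and free RNA alone would give 3.67 CPM in macrophage-like cells. After thinning, 23.1% (21.8 to 24.5) of fibroblast-like and 0.790% (0.395 to 1.41) of macrophage-like cells had a Ctsk UMI, and unthinned 78.5% of fibroblast-like and 4.68% of macrophage-like cells did.

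The Ctsk and Ctss genes are next to each other. On the mm10 assembly, Ctsk lies at chr3:95499256-95509362 and Ctss at chr3:95526786-95556403, both on the plus strand, with 17423 bases and 0 annotated genes between them. Across the 23 clusters of at least 50 cells their levels ran apart, with a Pearson r of -0.44 on log2(CPM + 5), a description over clusters of 1 library. The 250 bases before each RefSeq start, which hold what precedes these neighbouring genes, are shown from RefSeq (GRCm38.p6). The capitals mark GAGGAA or its reverse complement, the core bound by the myeloid factor PU.1.
Ctsk, chr3:95498960-95499209: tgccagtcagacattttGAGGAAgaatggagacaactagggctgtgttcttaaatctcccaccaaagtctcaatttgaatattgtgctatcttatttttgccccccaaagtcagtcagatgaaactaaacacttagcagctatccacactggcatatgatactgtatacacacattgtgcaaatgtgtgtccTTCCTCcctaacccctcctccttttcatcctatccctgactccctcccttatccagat
Ctss, chr3:95526536-95526785: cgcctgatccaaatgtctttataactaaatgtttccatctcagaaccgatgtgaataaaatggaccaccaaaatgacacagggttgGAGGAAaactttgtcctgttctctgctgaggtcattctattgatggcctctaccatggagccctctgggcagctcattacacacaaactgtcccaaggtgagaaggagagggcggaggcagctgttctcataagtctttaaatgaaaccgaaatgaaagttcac
The core stood in both windows, with 2 matches in Ctsk and 1 in Ctss, and a second Ctss match began at base 1 of the transcript. Of 32851 RefSeq promoters of 300 bases, 28.276% hold it on either strand. Ctsc held it 196 and 149 bases before its start, and Ctsd, Ctsl and Ctsz did not hold it. The AP-1 motif TGANTCA, present in 7.808% of promoters, had no match in the 6 members with a RefSeq promoter entry (Ctsc, Ctsd, Ctsk, Ctsl, Ctss and Ctsz).

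**Figure D2:**
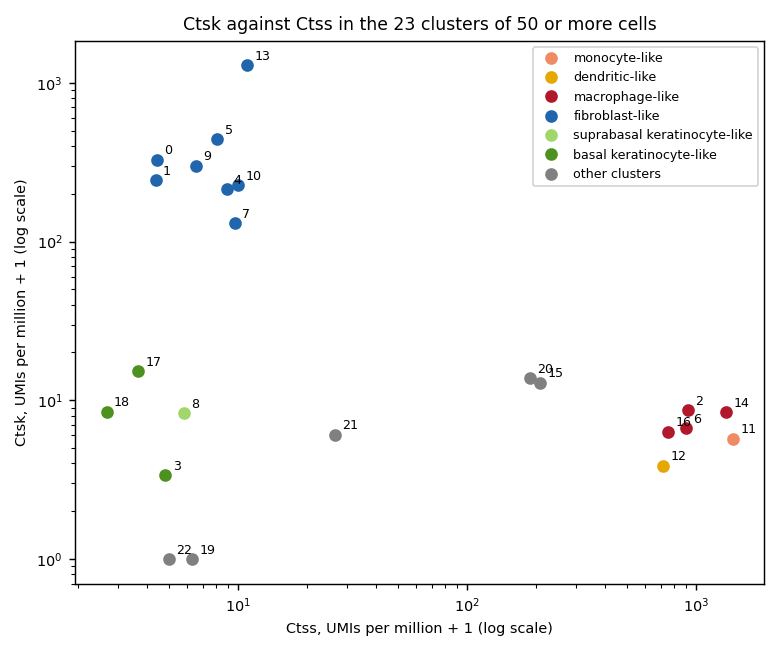
Ctsk against Ctss in the 23 clusters of at least 50 cells (CPM plus 1, log scales), 1 numbered point a cluster, coloured by class. The 8 fibroblast-like clusters lie high on Ctsk and low on Ctss, the macrophage-like, monocyte-like and dendritic-like clusters the other way round, and cluster 13 is highest for Ctsk at 1288 CPM.

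Ctsl encodes cathepsin L, a broad endopeptidase whose loss in mice disturbs hair follicle cycling (chr13:64359337-64370890, minus strand). In fibroblast-like cells it was at 1140.3 CPM (1130.3 to 1150.4), against 133 CPM in all other cells, a ratio of 8.58 (8.33 to 8.85). Pericyte or smooth muscle-like cells followed at 277 CPM, then neutrophil-like cells at 185, basal keratinocyte-like cells at 169, monocyte-like cells at 165 and macrophage-like cells at 155 CPM. From pericytes to macrophages no neighbours in this order differed beyond counting error. Dendritic-like cells had 82.5 CPM and suprabasal keratinocyte-like cells 38.9 CPM, under the 55.6 CPM of the free RNA estimate there. That estimate was also above the suprabasal levels of Ctsk (14.7 against 7.27 CPM) and Ctss (18.2 against 4.78 CPM). It is thus too high there and does not tell how much of this Ctsl is background. A Ctsl UMI was seen in 60.6% (59.1 to 62.2) of thinned fibroblast-like and 12.6% (10.9 to 14.5) of thinned macrophage-like cells, and unthinned in 93.2% of fibroblast-like and 45.2% of macrophage-like cells. The antisense gene Gm47123 touches a Ctsl exon but had 104 UMIs, against 54268 for Ctsl. The processed pseudogene Gm49230, on the same strand as Ctsl, also touches a Ctsl exon and has no row in the counts.

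Ctsc encodes cathepsin C, or dipeptidyl peptidase I, which activates several serine proteases of granules (chr7:88278085-88310888, plus strand). It was at 814 CPM (771 to 858) in monocyte-like cells and 732 (718 to 747) in macrophage-like cells, which differed beyond counting error. Neutrophil-like cells (437 CPM), T cell-like cells (395), dendritic-like cells (360), mast-like cells (262) and NK cell-like cells (219.5) followed, and no neighbours among these differed. Fibroblast-like cells were lowest at 3.86 CPM (3.30 to 4.49), under the 6.00 CPM of the free RNA estimate, which is thus too high for Ctsc there. Among keratinocytes, suprabasal cells had 34.1 CPM and basal cells 15.5 CPM, a ratio of 2.20 (1.75 to 2.77). Of these levels, the free RNA estimate would give 13.7 and 6.04 CPM. In the T cell-like class a Ctsc UMI was found in 32.0% (19.5 to 46.7) of 50 thinned cells, against 0.510% (0.312 to 0.786) of fibroblast-like cells. Unthinned, at medians of 4994 and 10699 UMIs, the shares were 70.6% of T cell-like and 3.09% of fibroblast-like cells.

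Of 8 granule proteases listed beside cathepsin C, not all of which need be activated by it, 7 were measured. Mast-like cells (23 cells) had Mcpt4 at 26910 CPM and Cma1 at 23675 CPM, both mast cell chymases, and the tryptase Tpsb2 at 9460 CPM. The granzyme Gzma was at 1128 CPM in NK cell-like cells. In macrophage-like and monocyte-like cells, where Ctsc stood highest, 6 of the 7 were called below all other cells in each class and 0 above. Of all genes, 34.1% were below and 13.8% above in macrophage-like cells, and 38.1% and 10.7% in monocyte-like cells. These counts were not particular to the 2 classes. All 7 were below in dendritic-like (38.4% of all genes), basal (29.6%) and suprabasal cells (38.3%). In fibroblast-like cells 6 were below (24%) and 1 above (20.2%). The other cells in each comparison include the mast-like and NK cell-like cells.

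Ctsd encodes cathepsin D, the aspartic protease of lysosomes (chr7:142375911-142388038, minus strand). Its level was 835 CPM (820 to 850) in macrophage-like cells, 532 (438 to 641) in neutrophil-like, 472 (311 to 687) in mast-like, 468 (433 to 505) in NK cell-like and 327 (301 to 356) in monocyte-like cells. Macrophages stood apart from the next class, while neutrophils, mast cells and NK cells could not be told apart. Fibroblast-like cells had 204 CPM (199 to 208), suprabasal cells 119, basal cells 91.0 and dendritic-like cells 72.0 CPM (60.9 to 84.4). Dendritic-like cells were thus below every other named class, by a factor of 1.26 (1.06 to 1.51) from basal keratinocytes. The ratio of fibroblast-like to all other cells, 0.484 (0.471 to 0.497), lay near the 2-fold line. It no longer passed with doublets kept (log2 -0.99), with every cell weighing the same (-0.96), without cells that carried fibroblast markers outside the fibroblast class (-0.91) or without macrophage cluster 6 (-0.78). Gm49369, a protein-coding gene on the same strand, touches a Ctsd exon and has no row in the counts.

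Ctsb encodes cathepsin B, which cleaves within proteins and also removes dipeptides from their ends (chr14:63122462-63145923, plus strand). It was at 1349 CPM (1330 to 1369) in macrophage-like cells, 1190.3 (1139 to 1243) in monocyte-like cells, 789 (674 to 919) in neutrophil-like cells, 577 (569 to 584) in fibroblast-like cells and 358 (333 to 384) in dendritic-like cells. Suprabasal keratinocyte-like cells had 129 CPM and basal cells 207 CPM. The first 5 classes in the order, down to group 2 innate lymphoid-like cells at 502 CPM, each differed from the next. The free RNA estimate would give 64.8% of the Ctsb level in group 2 innate lymphoid-like and 68.6% in NK cell-like cells. As said above, that estimate is too high for Ctsk in both. NK cell-like cells had 397 CPM, but the tenth of cells with most UMIs held 83.4% of their Ctsb, against 41.1% in macrophage-like cells. Fdft1, on the other strand, overlaps a Ctsb exon and had 1313 UMIs to 50111 for Ctsb. Whether counting used strand is not given in the sources used here.

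Ctsz encodes cathepsin Z, also called X, a carboxypeptidase (chr2:174427493-174439039, minus strand), and Ctsh encodes cathepsin H, an aminopeptidase (chr9:90054152-90076089, plus strand). For Ctsz the order was macrophage-like (700.5 CPM, 687 to 715), monocyte-like (574, 538 to 611), dendritic-like (432, 404 to 461), neutrophil-like (314, 243 to 399), fibroblast-like (206, 202 to 211) and NK cell-like cells (177), and each differed from the next beyond counting error. The free RNA estimate, too high for Ctsk in NK cell-like cells, would give 64.7% of their Ctsz level. Suprabasal keratinocyte-like cells had 6.23 CPM and basal cells 15.3 CPM. For Ctsh the 4 large lineages outside the epidermis lay close together. Monocyte-like cells had 504 CPM (470.5 to 539), dendritic-like 451 (423 to 481), fibroblast-like 412 (406 to 418) and macrophage-like 403 CPM (392 to 414), and the last 2 could not be told apart. Keratinocytes were lower for Ctsh, at 44.3 CPM among suprabasal and 54.2 CPM among basal cells. Nelfcd touches a Ctsz exon on the other strand and had 792 UMIs, to 21126 for Ctsz.

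Within the macrophage-like class, cluster 6 had the highest Ctsb, Ctsc, Ctsd, Ctsh and Ctsl. This cluster of 413 cells was led by C1qb, F13a1, Pf4 and Folr2, genes known from tissue-resident macrophages, while clusters 2 (596 cells) and 14 (238) were led by Lyz1 and Retnla and cluster 16 (186) also by the cell cycle gene Ube2c. Its summed macrophage markers stood at 13758 CPM, against 1736 to 3785 CPM in the other 3 clusters. Set against those together, cluster 6 was called above for Ctsb, Ctsc and Ctsl, 3 of the 8 (11.1% of 9950 genes), and below for 0 of the 8 (6.91%). The clusters were made from the same cells, so these ratios are descriptions, though the cathepsins were kept out of the clustering.

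Ctsb was at 3259 CPM (3199 to 3321) in cluster 6, against 971 in cluster 14, 720 in cluster 16 and 662 in cluster 2, and the ratio to the 3 together was 4.44 (4.32 to 4.58). The middle 50% of cells ranged from 1780 to 4661 CPM in cluster 6 and from 270 to 851 CPM in cluster 2, without overlap. With 24.4% of the class's UMIs, cluster 6 held 58.9% of its Ctsb and 70.9% of its Ctsl. Without it, macrophage-like cells had Ctsb at 733 CPM against 487 CPM in all other cells, a log2 ratio of 0.59, and the call of Ctsb ended. Against fibroblast-like cells it then ended too, at a log2 ratio of 0.35. This exclusion was chosen after seeing the data.

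Ctsl was at 450.1 CPM (428 to 473) in cluster 6, against 85.02 in cluster 14, 57.9 in cluster 2 and 45.5 in cluster 16. Its ratio of 7.57 (6.89 to 8.33) was the largest of the 8. Ctsc was at 1257 CPM (1220 to 1296), against 538 to 593 CPM in the other 3 clusters. Ctss and Ctsz did not follow. Ctss was at 901 CPM in cluster 6, against 1351 in cluster 14, 924 in cluster 2 and 752 in cluster 16, and Ctsz at 690 CPM, against 842, 730 and 558 CPM in the same order. Cluster 14 had the highest Ctss and Ctsz of the macrophage clusters, and the cycling cluster 16 the lowest Ctsd, Ctsh, Ctsl, Ctss and Ctsz. The nuclear RNA Malat1 was at 1269 CPM in cluster 14, against 3210 to 6737 CPM in the other 3, and its part in these levels was not tested.

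**Figure D3:**
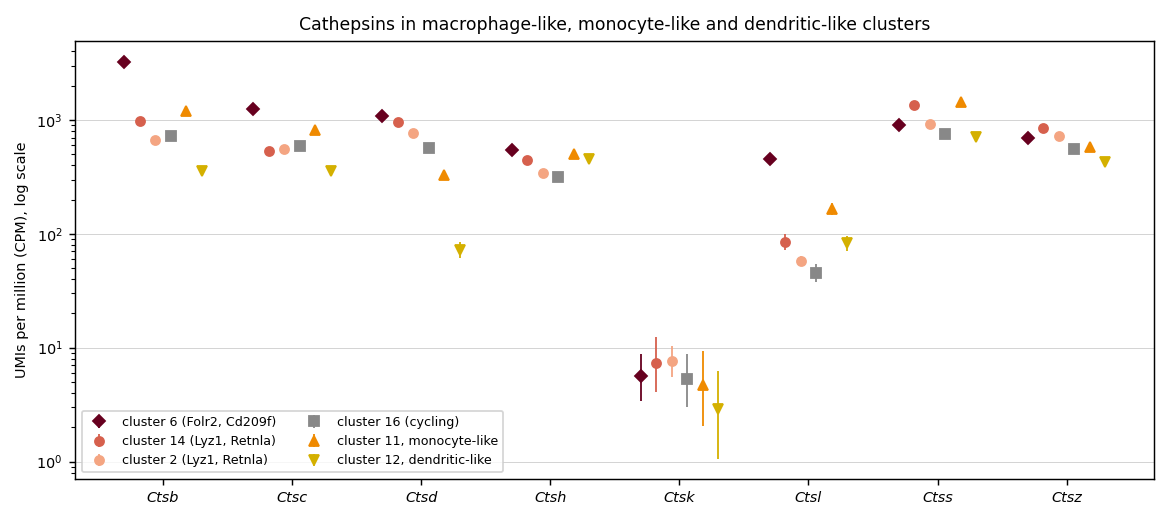
Levels of the 8 cathepsins (CPM, log scale) in the 4 macrophage-like clusters, the monocyte-like and the dendritic-like cluster, with 95% Poisson bars. Cluster 6 stands above the others for Ctsb at 3259 CPM and for Ctsl at 450.1 CPM but not for Ctss or Ctsz, and the dendritic-like cluster is lowest for Ctsd at 72.0 CPM.

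Monocyte-like cells lay within 2-fold of macrophage-like cells for all members but Ctsd. Against all other cells, Ctsc, Ctss and Ctsz, 3 of the 8, were called above (10.7% of genes) and Ctsk and Ctsl, 2 of the 8, below (38.1%). Against macrophage-like cells 0 of the 8 were above (8.62%) and only Ctsd, 1 of the 8, was below (22.2%), at 327 CPM in monocyte-like and 835 CPM in macrophage-like cells, 2.55-fold lower (2.34 to 2.78). Ctss was 1.54-fold higher in monocyte-like cells (1.47 to 1.61). Ctsl was at 165 CPM in monocyte-like and 155 CPM in macrophage-like cells, but without cluster 6 the macrophage level was 59.4 CPM and Ctsl was called above in monocytes, at a log2 ratio of 1.47.

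Dendritic-like cells had Ctss and Ctsc, 2 of the 8, above all other cells (9.31% of genes), and Ctsd, Ctsk and Ctsl, 3 of the 8, below (38.4%). Against macrophage-like cells 0 of the 8 were above (9.04%) and 4 of the 8 below (24.8%). Ctsd was 11.6-fold lower in dendritic-like cells (9.88 to 13.7), the largest of these differences. Ctsb was 3.77-fold lower (3.50 to 4.06), and Ctsc 2.04-fold lower (1.89 to 2.19), so that Ctsc lay at the 2-fold line. Its call ended under 4 other settings, at log2 ratios of -0.95 to -0.65, one of them without macrophage cluster 6. Ctsk, the fourth, rested on 6 UMIs, and free RNA would give 2.69 of its 2.88 CPM in dendritic-like cells. Its call ended with every cell weighing the same (log2 -0.32) and without cells carrying fibroblast markers (-0.42). Ctsh was at 451 CPM in dendritic-like and 403 CPM in macrophage-like cells, 1.12-fold higher (1.04 to 1.20).

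Among the 8 fibroblast-like clusters Ctsk stood apart in cluster 13. This cluster (249 cells) was led by Col1a1, Cilp and Cyp2f2 and with Ctsk itself among its 10 leading genes, and had 1288 CPM (1239 to 1339). Cluster 5, led by Mgp and Myoc, had 442 CPM (422 to 463), cluster 0, led by Cxcl13 and Inmt, 327 CPM, cluster 9 had 300.4 CPM, clusters 1, 10 and 4 had 242, 225 and 212 CPM, and cluster 7 had 129 CPM (115 to 145). Cluster 13 was 4.65-fold above the other 7 together (4.46 to 4.86) and held 18.5% of the class's Ctsk with 4.64% of its UMIs. Its cells differed among themselves, with quartiles of 370 and 1828 CPM. Ctsk was its only call above, 1 of the 8 (6.99% of 12890 genes), and 0 of the 8 were below (12.5%). The summed fibroblast markers, which include Col1a1 and Col1a2, stood at 52676 CPM in cluster 13, against 3072 to 25102 CPM in the other 7.

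Cluster 7 (407 cells) was led by Crabp1 and Dkk2 and was low in most cathepsins. Ctsb, Ctsh, Ctsk and Ctsl, 4 of the 8, were below the other fibroblast-like clusters (17.1% of genes), and Ctsc, 1 of the 8, above (21.3%). Ctsh was at 33.3 CPM in cluster 7 and 432 CPM in the other 7 clusters, 12.98-fold lower (10.3 to 16.6). Ctsl was at 216 CPM, against 1189 CPM, 5.52-fold lower (5.04 to 6.05). Ctsb was at 191 CPM, against 597 CPM. Ctsc reached 15.5 CPM, from 34 UMIs, against 3.24 CPM. Macrophage marker RNA was at 114 CPM in cluster 7 and 58.9 CPM in the fibroblast-like class as a whole. In cluster 5 this marker RNA was at 118 CPM and Ctsc at 6.12 CPM. The part of macrophage RNA in these Ctsc levels was not tested. Cluster 7 also had the fewest UMIs of these clusters, a median of 4668, the lowest fibroblast markers at 3072 CPM, and the nuclear RNA Malat1 at 44649 CPM, against 545 to 13693 CPM in the other 7. The part of these in its levels was not tested. Cluster 0, where Ctsl was highest at 1392 CPM, had the lowest Malat1, 545 CPM, and its part was not tested. Clusters 0 and 9 stood at the other end for Ctsh, with 574 and 593 CPM, against 281 CPM in cluster 5.

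**Figure D4:**
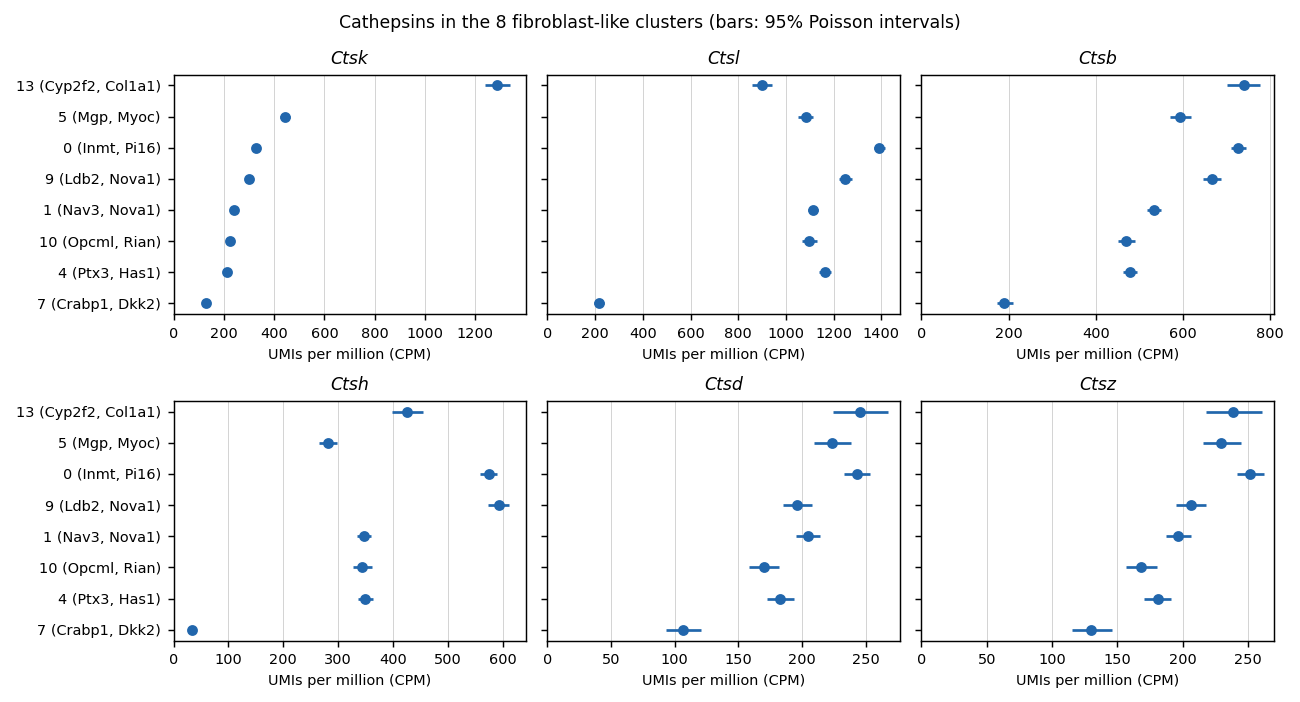
Levels of 6 cathepsins (CPM, linear axes from 0 that differ between panels) in the 8 fibroblast-like clusters, each named with 2 of its leading genes, with 95% Poisson bars. Cluster 13 is highest for Ctsk at 1288 CPM but not for Ctsl, where cluster 0 leads at 1392 CPM, and cluster 7 is lowest in every panel.

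Both keratinocyte classes were below all other cells together in all members. In basal keratinocyte-like cells 0 of the 8 were above all other cells (14.2% of genes) and 8 of the 8 below (29.6%), with a median log2 ratio of -3.20, where that of all genes was -0.04. In suprabasal cells 0 of the 8 were above (10.3%) and 8 of the 8 below (38.3%), with a median of -3.62, where that of all genes was -0.35. Fibroblast-like cells were above all keratinocyte-like cells for 6 of the 8 (27.2%) and below for Ctsc, 1 of the 8 (18.6%). The nearest to the line was Ctsd, at 204 CPM in fibroblast-like and 101 CPM in keratinocyte-like cells, 2.02-fold (1.91 to 2.14). It lost the call with doublets kept (log2 0.85) and with totals taken without mitochondrial and ribosomal genes (0.86). Macrophage-like cells were above all keratinocyte-like cells for 6 of the 8 (23.3% of genes) and below for 0 of the 8 (28.1%). Ctsk and Ctsl lay within 2-fold between these, at ratios of 1.22 (0.891 to 1.67) and 1.24 (1.17 to 1.32).

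Between the suprabasal and the basal class the members differed in direction. Ctsc, 1 of the 8, was above in suprabasal cells (5.63% of genes), and Ctsl and Ctsz, 2 of the 8, were below (22.6%). Of Ctsc, the free RNA estimate would give 13.7 of 34.1 CPM in suprabasal and 6.04 of 15.5 CPM in basal cells. Macrophage marker RNA was at 149 CPM in suprabasal and 50.1 CPM in basal cells. Its part in the Ctsc ratio was not tested. Ctsz turned direction with doublets kept, at 29.7 CPM in suprabasal and 21.2 CPM in basal cells, a log2 ratio of 0.49. Its suprabasal level of 6.23 CPM lay under the 21.7 CPM of the free RNA estimate. In suprabasal cells that estimate exceeded the levels of Ctsk and Ctss too and is too high. Ctsl was at 38.9 CPM in suprabasal and 169 CPM in basal cells, 4.35-fold lower (3.73 to 5.09). Ctsd was at 119 CPM in suprabasal and 91.0 CPM in basal cells, a ratio of 1.31 (1.18 to 1.46), and Ctsb at 129 CPM in suprabasal and 207 CPM in basal cells, a ratio of 0.623 (0.568 to 0.682). Within the basal class, cluster 17 (185 cells, led by Krt17, Krt15 and Ptn, with hair follicle markers at 3065 CPM) had Ctsk, Ctsl and Ctsz, 3 of the 8, above the other basal clusters (12.8% of 9857 genes) and Ctsc, 1 of the 8, below (10.6%). Ctsl was at 323 CPM (291 to 358) in cluster 17, against 148 CPM in the others, though with every cell weighing the same the log2 ratio was 0.78 and the call ended, and Ctsz at 39.0 CPM, against 12.01 CPM. Cluster 17 also had more fibroblast marker RNA, 748 CPM, against 283 CPM in the basal class as a whole. Its Ctsk, at 14.2 CPM, rested on 16 UMIs, and the part of fibroblast RNA in these levels was not tested. Cycling basal cluster 23 (40 cells) had Ctsl at 34.9 CPM.

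The machinery that delivers and activates cathepsins was compared in the same classes, and its counts stand beside the shares of all genes given above for each class over all other cells. Of 17 genes of activation and sorting, 8 were above and 1 below in macrophage-like cells, with a median log2 ratio of 0.81, and 1 above and 9 below in basal keratinocyte-like cells, with a median of -1.01. Lgmn, the asparaginyl protease legumain that cuts several cathepsin precursors, was at 348 CPM in macrophage-like and 92.5 CPM in all other cells. In macrophage cluster 6 Lgmn reached 1007 CPM, against 135 CPM in the other 3 clusters, 7.44-fold (6.99 to 7.92). Psap, the prosaposin precursor of lysosomal activator proteins, was at 3005 CPM in macrophage-like, 3000.2 CPM in monocyte-like and 1899 CPM in dendritic-like cells, against 574 CPM in fibroblast-like cells. Igf2r, the large mannose 6-phosphate receptor, went the other way and was 5.19-fold above all other cells in fibroblast-like cells (4.73 to 5.72), at 74.97 CPM.

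Other lysosomal genes were counted in the same way. Of 17 measured subunits of the proton pump that acidifies lysosomes, 6 were above and 0 below in macrophage-like cells, with a median log2 ratio of 0.73, and 0 above and 1 below in fibroblast-like cells, with a median of -0.70. Atp6v1b2 was at 241 CPM in macrophage-like and 65.3 CPM in all other cells. Of 28 other lysosomal hydrolases, 10 were above and 2 below in macrophage-like cells, with a median of 0.63, and 4 above and 4 below in fibroblast-like cells, with a median of 0.08. In basal cells 23 of the 28 were below and 1 above, and in suprabasal cells 20 and 0. The exception in basal cells was Acp5, the tartrate-resistant acid phosphatase, at 51.0 CPM against 5.71 CPM in all other cells. Gaa, acid alpha-glucosidase, was 6.37-fold above in fibroblast-like cells (5.82 to 6.99), at 95.4 CPM. Of 14 lysosomal membrane proteins 5 were above and 3 below in macrophage-like cells, led by Slc11a1, a metal ion transporter of phagosomes, at 93.0 CPM against 4.51 CPM. Cluster 6 had 7 of the 28 hydrolases and 6 of the 14 membrane proteins above the other macrophage clusters (11.1% of all genes) and 0 of either below (6.91%). Cluster 7 had 15 of the 28 hydrolases below the other fibroblast clusters (17.1%) and 0 above (21.3%).

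Class II genes accompany cathepsin S in antigen presentation. Of 9 partners 8 were above in macrophage-like (13.8% of all genes) and in monocyte-like cells (10.7%), and 0 below (34.1% and 38.1%). Their median log2 ratios were 3.31 and 1.81. In dendritic-like cells 9 were above (9.31%), with a median of 3.11. All 9 were below in fibroblast-like (24%) and in basal cells (29.6%). Cd74, the invariant chain that cathepsin S cleaves, was at 21689 CPM in dendritic-like, 10821 in macrophage-like and 11134 in monocyte-like cells, against 60.2 CPM in fibroblast-like cells. Dendritic-like cells, higher in Cd74, were lower in Ctss (715 CPM) than macrophage-like cells (942 CPM). Cluster 6, high in Ctsb, Ctsc and Ctsl, had 3 of 8 measured partners below the other clusters (6.91% of all genes) and 0 above (11.1%), among them H2-DMa at 356 CPM against 1014 CPM and H2-Ab1 at 2700.2 CPM against 5546 CPM.

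Of 13 matrix and bone-resorption genes linked to cathepsin K, 9 were above (20.2% of all genes) and 2 below (24%) in fibroblast-like cells. Their median log2 ratio was 4.89. Col3a1, a chain of type III collagen, was at 4752 CPM in fibroblast-like and 70.9 CPM in all other cells, and Eln, elastin, at 253 CPM in fibroblast-like and 4.17 CPM in all other cells. Tnfrsf11a, which encodes RANK, the receptor that drives osteoclasts to make cathepsin K, was instead 5.63-fold above in macrophage-like cells (5.03 to 6.31), at 49.4 CPM, where Ctsk was at 6.66 CPM. In cluster 13, 2 of 12 measured genes of this list were above the other fibroblast clusters (6.99% of all genes), Sparc at 5906 CPM against 2594 CPM and Eln at 483 CPM against 242 CPM, while Ctsk was 4.65-fold above. In cluster 7, 9 of the 12 were below (17.1% of all genes) and 0 above (21.3%).

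Of 19 cystatins and other inhibitors 18 had a row in the counts and 8 reached 50 UMIs. Of these 8, 1 was above (13.8% of all genes) and 6 below (34.1%) in macrophage-like cells, with a median log2 ratio of -2.67. In monocyte-like cells 1 was likewise above (10.7%) and 6 below (38.1%), with a median of -1.73. In dendritic-like cells 1 was above (9.31%) and 3 below (38.4%), with a median of -0.20. In each of these classes the count above lay near the share of all genes, as did the count below in dendritic-like cells. In fibroblast-like cells 1 was above (20.2%) and 5 below (24%), with a median of -3.61. In basal cells 2 were above (14.2%) and 4 below (29.6%), with a median of -0.90. In suprabasal cells 2 were above (10.3%) and 3 below (38.3%), with a median of 0.26. Cst3, cystatin C, an extracellular inhibitor of cysteine cathepsins, was at 5529 CPM in dendritic-like, 2773 in monocyte-like and 2144 in macrophage-like cells, against 527 CPM in fibroblast-like cells. Serpinb6a, an intracellular serpin, was 5.86-fold above in fibroblast-like cells (5.72 to 6.02), at 1141 CPM against 195 CPM in all other cells. Cst6, cystatin M/E of the cornifying epidermis, was at 180 CPM among suprabasal and 40.4 CPM among basal cells. Cst7, cystatin F, which regulates cathepsin C in cytotoxic cells, was at 467 CPM in T cell-like and 82.8 CPM in NK cell-like cells. Of 14 further cathepsins 5 were measured. Ctsw was at 814 CPM in T cell-like and 296 CPM in NK cell-like cells, Ctsa 3.68-fold above in macrophage-like cells (3.51 to 3.87), and Ctso and Ctsf 3.46-fold and 4.03-fold above in fibroblast-like cells.

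**Figure D5:**
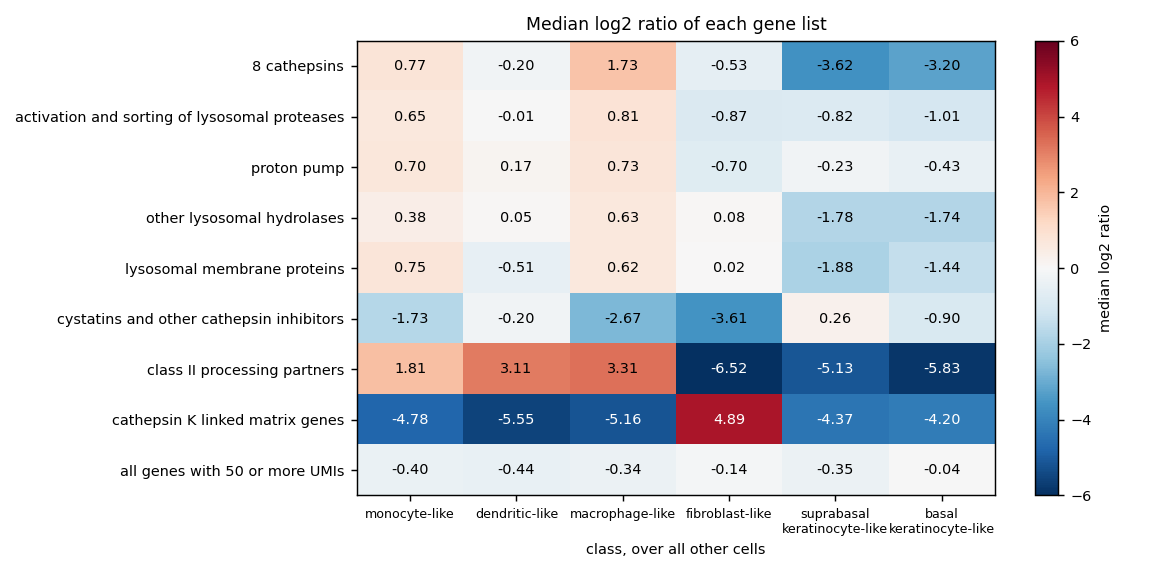
Median log2 ratio of each gene list in a class over all other cells, with the 8 cathepsins in the top row and all genes with at least 50 UMIs in the bottom row; red is higher and blue lower in the class. The cathepsins are highest in macrophage-like cells at 1.73 and lowest in suprabasal cells at -3.62, class II partners are high in the 3 myeloid classes shown, and the cathepsin K linked genes are high in fibroblast-like cells at 4.89.

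The genes most like each member across the 23 clusters were taken from 10351 genes with at least 500 UMIs, by Pearson r of log2(CPM + 5). Ctss ran with Pirb (r = 0.995), Ly86, Rassf4 and H2-Ab1. Ctsc ran with Hcls1 (r = 0.958), Cd48, Tnfaip8l2, Fcer1g and Tm6sf1. Ctsk ran with Srpx (r = 0.983), Creb3l1, Olfml1, Pcdh18 and Ntn1, and Ctsl with Cebpd (r = 0.947), C1ra, Fam114a1, C1qtnf1 and Dennd2a. Ctsb ran with Grn, progranulin (r = 0.957), P2rx4, Sirpa, Tmem106a and Xaf1. Ctsz ran with Hexa, a hexosaminidase subunit (r = 0.968), Ftl1, Gusb and Stard3nl, Ctsh with Il3ra (r = 0.935), Hacd4, Xaf1, Gda and Snx10, and Ctsd with Ap2m1 (r = 0.901), Wars, Nans, Ap2s1 and 2510039O18Rik. The top 5 depend on the measure. Spearman's rho kept 0 to 2 of each 5 and a pseudocount of 1 CPM kept 2 to 4. Among the members themselves, Ctsc and Ctss had r = 0.88, Ctsb and Ctsh 0.88, and Ctsk and Ctsl 0.87. Ctsk and Ctsc ran most apart, at -0.67.

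Lysosomal genes are known targets of the factors TFEB, TFE3 and MITF, which bind an E-box with the core CACGTG. This core is in 7.15% of the 32851 RefSeq promoters and was found in 2 of the 6 members with an entry. The windows around the matches, with the core in capitals, are given because the 2 genes differ in where they were high (Ctsd in macrophages, Ctsl in fibroblasts).
Ctsd, chr7:142388055-142388077, minus strand: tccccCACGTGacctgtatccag
Ctsd, chr7:142387908-142387937, minus strand: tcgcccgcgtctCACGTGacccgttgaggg
Ctsl, chr13:64370739-64370768, minus strand: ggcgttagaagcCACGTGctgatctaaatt
In Ctsd the matches began 245 and 98 bases before the RefSeq start and in Ctsl 236 bases before it. On the minus strand the GENCODE spans given above reach further upstream than the RefSeq starts, so the second Ctsd match and the Ctsl match lie inside those spans. Of the genes for the factors, Tfeb was at 36.1 CPM in macrophage-like and 11.5 CPM in fibroblast-like cells, Mitf at 195 CPM in macrophage-like and 243 CPM in fibroblast-like cells, and Mitf stood at 557 CPM in basal cluster 17, against 35.8 CPM in the other basal clusters. A match describes these letters and is not evidence of binding.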

How the data were processed

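Single-cell RNA of mouse skin was measured in 1 pooled library of neutrophil-depleted and control cells. The deposited file holds raw UMI counts per gene and barcode, 83725065 UMIs over 8367 barcodes; Cell Ranger (version not stated) and mm10 are named per the submitters' processing notes, and the annotation and strand setting are not given in the sources used here. Hashtag counts were not analysed here. Barcodes with 200 or more genes and at most 20% mitochondrial UMIs were kept (8127). Scrublet in Scanpy 1.11.5, at an expected rate of 6%, removed 305 doublets (3.75%).

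Counts were scaled to 10000, logged, and 2000 variable genes, leaving out the members and the list genes, gave 30 components, 15 neighbours and Leiden clusters at resolution 1 (leidenalg 0.10.2). A list could name a cluster where 3 or more and at least 50% of its markers were in at least 10% of the cells and at least 2-fold over the median cluster; of several lists, the one with most markers among the 10 leading genes, then with the largest share up, gave the name. A planned hair follicle class could not be named at these settings (it was with doublets kept and, for 51 cells, at resolution 2), so clusters 17 and 18 were compared by number. UMIs were summed per class, with exact Poisson intervals for levels, exact conditional intervals for ratios and Clopper-Pearson intervals for shares (95%, SciPy 1.17.1). With 1 library there is no test. Cells were thinned to 1000 UMIs for shares. Ratios used an offset of 0.5 UMIs only for logarithms. Intervals were checked on simulated data.

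The members and lists were chosen with earlier results of these data known. Named genes are the 8 members, for each list and class its 2 most abundant genes and, among genes of 20 or more UMIs, its 2 top ratios, and the 5 most alike genes per member, of which 2 genes in all are not reported here. Values in T cell-like, NK cell-like and mast-like cells, those of Tfeb and Mitf, and the genes named within clusters were picked after their values were seen. Gene positions come from GENCODE on mm10. Alternatives changed the gene and mitochondrial filters, doublets, resolution, clustering genes, weighting, free RNA, fibroblast-marker cells, scaling, thinning, list minimum and likeness measure; leaving out clusters was added after seeing the data.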

Additional observations from a re-analysis of the deposited data

How the results depend on the processing

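Of 348 counts of members called under the alternatives, 335 stayed within 1.5 times of the value reported and 13 moved. Of 1828 log2 ratios, 50 changed their call and 1 reversed. With doublets kept, Ctsz in suprabasal over basal cells reversed, to a log2 ratio of 0.49. There the cells were clustered again, and clusters of 203 and 116 cells were named hair follicle keratinocyte-like, not basal. In that setting 2 of the 8 members were below in monocyte-like over macrophage-like cells, 2 below in fibroblast-like over keratinocyte-like cells, and 2 above and 1 below in suprabasal over basal cells. For suprabasal over basal cells, 2 were above at resolution 2, 2 with every cell weighing the same and 2 without cells carrying fibroblast markers, and 4 were below with free RNA subtracted. With every cell weighing the same, 2 were above in cluster 13 and 2 below in cluster 17. With free RNA subtracted, 2 were above in cluster 7 and 3 in cluster 13. Without macrophage cluster 6, an alternative added after seeing the data, 1 was above in monocyte-like over macrophage-like cells. Shares of all genes past the 2-fold line were not computed for these settings, so these counts have no background beside them. The cause of the changes was not tested. No paired analysis was possible because all cells came from 1 library. Low levels, such as Ctsk and Ctss outside their main classes, rest on few UMIs and are limited by depth and free RNA.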
